A study of Rattus norvegicus with 4 samples.

Results

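Astrocyte and radial glia genes were followed in cultured rat cortical neurons that carried a control shRNA or an shRNA against PHF6. The list held 37 genes, 23 of astrocytes and 14 of radial glia. It was chosen by gene function, with earlier results of these data known. Of the 37 genes, 34 had a probe set annotated to that gene alone, 1 probe set each, among 17245 named genes. Aldh1l1, Glul and Tnc were not analysed here. The neurons came from the cortex of wild-type Sprague Dawley rats at embryonic day 18. Every culture, control or not, received the pLL3.7 lentivirus, which makes a hairpin RNA in dividing and non-dividing cells, and RNA was taken 5 days after infection. In 2 arrays the virus carried control shRNA and in 2 it carried PHF6shRNA-2, the single PHF6 hairpin used. PHF6 is a chromatin-associated zinc finger protein, and loss of its function causes a form of X-linked intellectual disability. Each group holds biological duplicates numbered 1 and 2, and the labels do not say whether a number marks a shared culture, litter or day, nor whether the duplicates came from separate cultures. The p-values therefore rest on the spread among these 4 arrays, which may be technical.

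Radial glia are the progenitor cells that line the ventricles of the embryonic cortex, produce neurons and later give rise to astrocytes. Astrocytes take up glutamate and GABA from around synapses, buffer ions and water, and couple to each other through gap junctions. Signalling through the Notch receptor, which acts through Hes genes, and through bone morphogenetic proteins (BMPs), which induce Id genes, is known to hold progenitors undifferentiated and to favour the astrocyte fate. A culture of embryonic cortical neurons carries some of these cells along, so the genes report on the glial and progenitor share of the culture as well as on expression within cells. In bulk RNA fewer cells of a type and less RNA per cell cannot be told apart.

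The values are probe set intensities that the authors produced with RMA, and differences are given in log2 units, so that 1 unit is a doubling. Genes of 1265 olfactory and vomeronasal receptors, taken as silent in cortex, gave each array its background level, the value that 95% of them did not exceed. It was 44.0 intensity units in control duplicate 1 and 42.7 in PHF6 shRNA duplicate 1, against 34.7 and 36.4 in the duplicates numbered 2. Of all named genes, 9327 to 10622 exceeded it on an array. Phf6 itself read 32.8 and 34.3 with control shRNA and 34.4 and 31.3 with PHF6 shRNA (here and below duplicate 1 first, then duplicate 2), below background on all 4, so its probe set does not check the labels and each direction rests on them. An exact two-sided permutation test on 2 arrays against 2 has a smallest p of 0.333, so limma's moderated test over all genes was used with Benjamini-Hochberg adjustment.

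Of the 34 genes, 22 exceeded background on all 4 arrays, among them the glutamate transporter genes Slc1a2 and Slc1a3, Aldoc, Apoe, Clu, Sox9, Fabp7, Vim and Sox2. A further 8 exceeded it on both duplicate 2 arrays and on neither duplicate 1 array: Gfap, Aqp4, Gja1, Fgfr3, Nes, Pax6, Hes1 and Zfp36l1. This call depends on the level as well as on the reading, since background was lower on the duplicate 2 arrays. In the duplicates 1, Aqp4, Pax6 and Zfp36l1 read above the background level of either duplicate 2 array. In the duplicates 2, Nes and Hes1 read below the level of either duplicate 1 array. Hopx exceeded background on PHF6 shRNA duplicate 2 only. Gjb6, which encodes the gap junction protein connexin 30, the receptor gene Gpr37l1 and Prom1, which encodes prominin, were below it throughout, at 19.6 to 31.8. All 12 neuron markers were above background on all 4 arrays. Of the microglia markers 8 of 13, and of the endothelial and mural markers 8 of 10, were above it on no array, among them Aif1, Csf1r, C1qa and Cldn5. Of all 17245 genes 6431 were above it on no array. Of the 13 microglia markers 3 were above it on all 4.

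**Figure D1:**
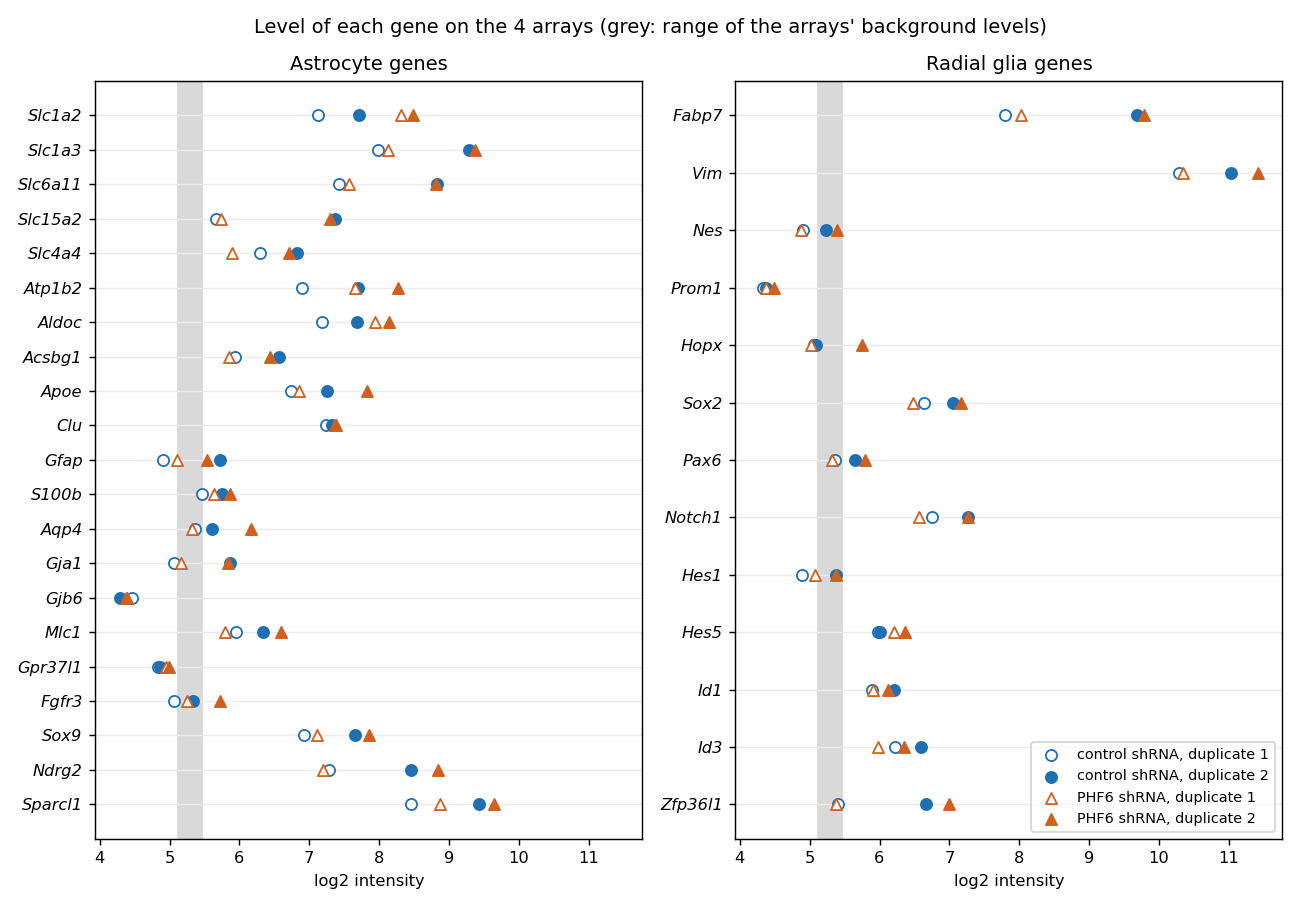
Log2 intensity (x axis) of the 34 genes on the 4 arrays. Circles are control shRNA and triangles PHF6 shRNA, open for duplicate 1 and filled for duplicate 2; the grey band spans the background levels of the arrays. In 27 genes both filled symbols lie to the right of both open ones, and for Slc1a2 and Aldoc both triangles lie to the right of both circles.

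The widest pattern among these genes ran along the duplicate number and not along the shRNA. The mean of the duplicates numbered 2 was higher in 33 of 34 genes, against 48.5% of all genes and 62.7% of the 10352 genes above background on at least 2 arrays. In 33 of 34 genes the duplicate numbered 2 read higher than the one numbered 1 in the control group and in the PHF6 shRNA group alike, while 32.3% of all genes did so. The median gap was 0.57 log2 units over the 34 genes and -0.01 over all genes. It was 0.51 in the control group and 0.65 in the PHF6 shRNA group, which share no array. In 27 of the 34 both duplicate 2 arrays lay above both duplicate 1 arrays, against 19.7% of all genes and 26.8% of those 10352; in none did they lie below both, against 24.6% of all genes. In a limma fit with the number as the only factor none of the 34 passed, nor did any of the 17245 genes (0%; smallest adjusted p 0.12), and 24 of the 34 had an unadjusted p under 0.05, all higher in duplicate 2, against 6.71% of all genes higher and 4.23% lower. When the shRNA group was added as a second factor, 21 of the 34 passed limma's adjusted threshold of 0.05, all higher in duplicate 2, against 3.97% of all genes and 3.17% in that direction. By cell type these were 13 of 21 astrocyte genes and 8 of 13 radial glia genes, with median gaps of 0.62 and 0.39. The lower background of the duplicate 2 arrays moved with the same number. The gap is therefore not exact for the 8 genes above background on the duplicate 2 arrays alone. Nor is it exact for Hopx or for the 3 genes below background throughout. The part of background in the other gaps was not tested.

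Among the transporters, Slc1a3 and Slc1a2 encode the glutamate uptake carriers GLAST and GLT-1, of which GLAST is also made by radial glia. Slc1a3 read 254 and 622 in control duplicates 1 and 2 and 278 and 665 in the PHF6 shRNA duplicates. Both duplicate 2 arrays were more than double both duplicate 1 arrays, and the gap was 1.28 ± 0.09 log2 units (SE; limma adjusted p = 0.12, or 5.8e-04 with the shRNA group as a second factor). Slc6a11, the GABA transporter GAT-3, read 173 and 453 with control shRNA and 190.4 and 449 with PHF6 shRNA. Slc15a2, the peptide transporter PEPT2, read 50.7 and 166 (control shRNA) and 53.5 and 158 (PHF6 shRNA). These 3 genes repeated their values across the shRNA groups closely, with gaps of 1.39 (control) and 1.24 (PHF6 shRNA) for Slc6a11 and of 1.71 and 1.56 for Slc15a2. Slc4a4, a sodium bicarbonate cotransporter, read 78.2 and 113 with control shRNA and 59.3 and 104 with PHF6 shRNA, a gap of 0.67 ± 0.15. Slc1a2 and Atp1b2, a beta subunit of the sodium pump, had gaps of 0.38 ± 0.47 and 0.72 ± 0.32, with wide errors, since their values also stood apart by shRNA group.

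The promoter windows of these transporters and of the Hes genes are shown because each pair joins related genes with different patterns. Slc1a2 and Hes5 stood apart by shRNA group, and Slc1a3 and Hes1 by duplicate number. Each window covers 250 bases before to 50 after a gene start in RefSeq's GRCr8 annotation, 5′ to 3′ on the gene's strand: Slc1a2 at chr3:109459859-109460158, plus strand; Slc1a3 at chr2:59557759-59558058, minus strand; Hes1 at chr11:84212996-84213295, minus strand; Hes5 at chr5:170804327-170804626, plus strand. Capitals mark matches, on either strand, to an NFI half-site (TTGGCA), a SOX motif (ACAAAG), an RBPJ motif (GTGGGAA), an E-box (CAGCTG) or a TATA motif (TATAAA); no match overlaps another in these 4 windows.
Slc1a2: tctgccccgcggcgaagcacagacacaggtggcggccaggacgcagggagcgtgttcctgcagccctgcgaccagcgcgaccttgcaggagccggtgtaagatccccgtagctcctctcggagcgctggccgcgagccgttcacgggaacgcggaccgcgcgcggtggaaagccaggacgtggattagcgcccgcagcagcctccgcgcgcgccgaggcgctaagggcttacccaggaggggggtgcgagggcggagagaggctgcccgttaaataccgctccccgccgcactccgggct
Slc1a3: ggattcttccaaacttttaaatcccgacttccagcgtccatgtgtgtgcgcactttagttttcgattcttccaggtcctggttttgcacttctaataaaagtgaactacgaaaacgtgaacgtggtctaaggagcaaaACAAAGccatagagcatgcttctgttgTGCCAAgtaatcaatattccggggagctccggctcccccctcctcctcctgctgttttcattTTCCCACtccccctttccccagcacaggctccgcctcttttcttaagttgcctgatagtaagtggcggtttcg
Hes1: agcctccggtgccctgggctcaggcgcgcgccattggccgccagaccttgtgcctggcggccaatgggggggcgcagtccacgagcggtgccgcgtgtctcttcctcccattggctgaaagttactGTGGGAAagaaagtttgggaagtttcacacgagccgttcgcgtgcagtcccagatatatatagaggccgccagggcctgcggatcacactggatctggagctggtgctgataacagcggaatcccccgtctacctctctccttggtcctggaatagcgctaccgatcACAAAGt
Hes5: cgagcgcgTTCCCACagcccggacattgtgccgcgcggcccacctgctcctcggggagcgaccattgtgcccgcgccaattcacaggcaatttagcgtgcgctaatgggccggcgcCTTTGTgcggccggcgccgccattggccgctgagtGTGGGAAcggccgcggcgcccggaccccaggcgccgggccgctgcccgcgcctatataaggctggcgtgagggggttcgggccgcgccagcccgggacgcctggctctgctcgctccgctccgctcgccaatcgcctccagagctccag
RBPJ is the DNA-binding partner of Notch, and its motif stands 1 time in the Hes1 window, 2 times in the Hes5 window and 1 time in the Slc1a3 window. It was in 4 of the 32 members with a window (Atp1b2 is the other), and in 6.19% of 27457 first-listed gene windows. The NFI half-site was in 5 of 32 and in 13.6% of all windows, the SOX motif in 4 and in 18.3%, the E-box in 3 and in 15.1%, and the TATA motif in 5 and in 14.3%. The Slc1a2 window held none of the 5 motifs. RefSeq gave 2 windows for Slc1a2 and 3 for Slc1a3, and only the first listed of each gene was searched. These matches describe the letters only, and binding was not tested.

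Among enzymes and lipid carriers, Acsbg1, an acyl-CoA synthetase, read 61.4 and 95.03 with control shRNA and 57.8 and 86.7 with PHF6 shRNA, a gap of 0.61 ± 0.09. Apoe, the lipid carrier of astrocytes, read 106 and 152 (control shRNA) and 116 and 226 (PHF6 shRNA), highest in PHF6 shRNA duplicate 2, a gap of 0.74 ± 0.20. Aldoc, the brain aldolase, had a gap of 0.36 ± 0.30. Clu, clusterin, read 151 and 161 with control shRNA and 165 and 166 with PHF6 shRNA, and its gap of 0.05 turned negative under cyclic loess.

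Structural, junction and membrane genes were dim. Gfap, the intermediate filament of mature astrocytes, read 30.01 and 52.7 with control shRNA and 34.6 and 46.3 with PHF6 shRNA. Gja1, the gap junction protein connexin 43, read 33.3 and 58.4 (control shRNA) and 35.7 and 57.04 (PHF6 shRNA), and Aqp4, the water channel, 41.05 and 48.8 (control shRNA) and 40.1 and 71.5 (PHF6 shRNA). In all 3 genes only the duplicate 2 arrays exceeded background, which was lower on those arrays. Mlc1, a membrane protein that regulates astrocyte volume, read 61.97 and 80.6 (control shRNA) and 55.6 and 96.5 (PHF6 shRNA), a gap of 0.59 ± 0.12. S100b, a calcium-binding protein, read 44.2 and 54.1 with control shRNA and 49.6 and 58.5 with PHF6 shRNA, a gap of 0.26 ± 0.09.

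Among regulators and matrix genes, Ndrg2 read 156 and 352 with control shRNA and 147 and 460.3 with PHF6 shRNA. Its gap was wider in the PHF6 shRNA group (1.65) than in the control group (1.17), a difference of gaps that 1 array for each number and group cannot test. Sox9, a transcription factor of glial fate, read 121 and 201 (control shRNA) and 139 and 232 (PHF6 shRNA), with gaps of 0.73 and 0.75. Sparcl1, the secreted matrix protein hevin, read 350.2 and 688 (control shRNA) and 467 and 802 (PHF6 shRNA). Fgfr3, a fibroblast growth factor receptor, read 33.4 and 40.5 (control shRNA) and 37.96 and 52.9 (PHF6 shRNA) and was highest in PHF6 shRNA duplicate 2.

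Fabp7, the brain lipid-binding protein of radial glia, had the widest gap of the 34 genes. It read 223 and 821 in the control duplicates 1 and 2 and 259 and 879.6 in the PHF6 shRNA duplicates, 3.69-fold and 3.39-fold higher in duplicate 2. Its gap of 1.82 ± 0.10 log2 units ranked 3 among all 17245 genes (limma adjusted p = 0.12, or 1.8e-04 with the second factor). Slc15a2 ranked 5 and Zfp36l1, which encodes an RNA-binding protein that promotes mRNA decay, ranked 8. Zfp36l1 read 42.2 and 101 (control shRNA) and 41.6 and 128 (PHF6 shRNA). In all, 8 of the 34 were among the 100 widest gaps toward duplicate 2. Vim, the intermediate filament vimentin, read 1252 and 2102 (control shRNA) and 1295 and 2726 (PHF6 shRNA), and Nes, nestin, read 30.03 and 37.5 (control shRNA) and 29.2 and 42.2 (PHF6 shRNA). Hopx, a homeodomain protein of outer radial glia, stood apart, at 33.3 and 33.96 (control shRNA) and 32.5 and 53.98 (PHF6 shRNA): only PHF6 shRNA duplicate 2 was high.

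Sox2 and Pax6, transcription factor genes of progenitors, and Notch1, the receptor gene, had gaps of 0.54, 0.38 and 0.61. Sox2 read 99.8 and 132 with control shRNA and 89.2 and 143 with PHF6 shRNA, Pax6 41.1 and 50.2 (control shRNA) and 40.1 and 55.3 (PHF6 shRNA), and Notch1 107 and 154 (control shRNA) and 94.3 and 154 (PHF6 shRNA). In each of these 3 both duplicate 2 arrays lay above both duplicate 1 arrays. Among the Notch effectors Hes1, below background in the duplicates 1, had a gap of 0.39 ± 0.09 and Hes5 of 0.09 ± 0.15. The BMP-responsive Id1 and Id3 had gaps of 0.26 ± 0.07 and 0.37 ± 0.13.

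**Figure D2:**
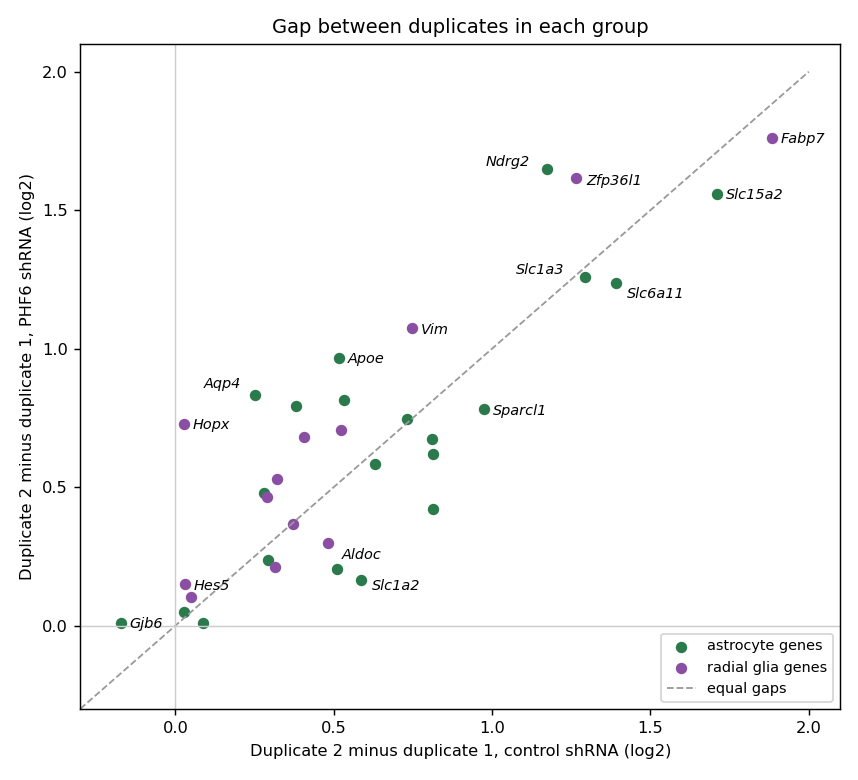
Gap between duplicates, duplicate 2 minus duplicate 1 in log2 units, in the control group (x axis) and in the PHF6 shRNA group (y axis), 1 point per gene; the dashed line marks equal gaps. All 34 genes except Gjb6 lie above 0 on both axes, and Fabp7, at 1.88 and 1.76, is farthest out.

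Across the 34 genes the gap in the control group and the gap in the PHF6 shRNA group had a Pearson correlation of 0.84 and a Spearman correlation of 0.71. Over all genes these were 0.57 and 0.46, so gaps repeated between the groups in the whole table too. The correlations run across genes measured on the same 4 arrays, and genes are not independent replicates. In 28 of the 34 genes the gap between numbers was larger than the difference between the shRNA groups, against 53.5% of all genes.

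The question of the study was which transcripts differ with the PHF6 shRNA. With the shRNA group as the only factor none of the 34 genes passed in that comparison, and 0% of all genes did (limma, smallest adjusted p 0.23). At an unadjusted p under 0.05 there were 3, Slc1a2, Aldoc and Hes5, all higher with the PHF6 shRNA, against 3.28% of all genes higher and 7.52% lower. When the duplicate number was added as a second factor, 3 of the 34 passed, Slc1a2, Atp1b2 and Aldoc, against 909 of the 17245 genes. The labels do not say that a number pairs 2 arrays. Unless stated, p-values of this comparison below are from the fit with the shRNA group alone. By direction, 28 of the 34 had a higher mean in the PHF6 shRNA arrays, against 47.7% of all genes and 41.5% of those above background on at least 2 arrays, with a median difference of 0.10 log2 units against -0.01. That count depended on which array was left out, because the numbers 1 and 2 were then unequally held by the groups. Leaving out control duplicate 1 gave 12 with a median of -0.16, and leaving out PHF6 shRNA duplicate 2 gave 9 with a median of -0.18. Leaving out control duplicate 2 gave 32 with a median of 0.36, and leaving out PHF6 shRNA duplicate 1 gave 33 with a median of 0.41. Within the numbers, 21 of 34 were higher in duplicate 1 and 25 in duplicate 2. In 16 of the 34 the PHF6 shRNA array was higher in both numbers, against 27.8% of all genes, and in 4 it was lower in both, against 34.0%. No array overlapped between the groups in 6 genes, all higher with the PHF6 shRNA, against 16.0% of all genes, and none lower, against 21.7%; these were Slc1a2, Aldoc, Hes5, Clu, Gpr37l1 and Prom1, of which the last 2 were below background.

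Slc1a2 had the largest difference of the 34. It read 139.9 and 210.1 with control shRNA and 318 and 357 with PHF6 shRNA. Both PHF6 shRNA arrays lay above both control arrays, and control duplicate 1 was the lowest. The difference was 0.98 ± 0.20 log2 units (SE), or 1.97-fold, with a 95% interval from 0.47 to 1.48. It did not pass with the shRNA group as the only factor (limma adjusted p = 0.24, unadjusted 0.0037), and it passed with the number added. Within duplicates 1 and 2 it was 1.19 and 0.77. Its relative Slc1a3 differed by 0.12 ± 0.55 (95% interval -1.27 to 1.498), with 0.13 and 0.10 within the numbers. The interval of Slc1a3 contains the difference seen for Slc1a2. Its width holds the gap of Slc1a3 between the numbers, which this fit leaves in the error, so it does not compare the 2 genes.

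Aldoc read 145 and 206 with control shRNA and 246 and 283 with PHF6 shRNA, again without overlap. Its difference was 0.61 ± 0.18 log2 units, with 0.76 and 0.46 within the numbers (limma adjusted p = 0.35). Atp1b2 read 119 and 208 (control shRNA) and 202 and 309.6 (PHF6 shRNA). Here the groups overlapped, because control duplicate 2 lay just above PHF6 shRNA duplicate 1, although the PHF6 shRNA array was higher within each number, by 0.76 and 0.57. The mean difference was 0.67 ± 0.32 (limma adjusted p = 0.56). Leaving out each array in turn gave 0.68 to 1.27 for Slc1a2, 0.35 to 0.86 for Aldoc and 0.26 to 1.07 for Atp1b2, with control duplicate 1 giving the lowest value and control duplicate 2 the highest in each.

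Hes5 read 62.9 and 64.2 with control shRNA and 74.00 and 82.1 with PHF6 shRNA. Both groups were tight and did not overlap, and the difference was 0.29 ± 0.09 log2 units (limma adjusted p = 0.36). Hes1 read 29.7 and 41.6 (control shRNA) and 33.8 and 41.6 (PHF6 shRNA), nearly equal in the duplicates numbered 2, a difference of 0.09 ± 0.19. Id3 stood in the other direction, at 74.4 and 96.3 (control shRNA) and 62.97 and 81.3 (PHF6 shRNA), with the same difference, -0.24 and -0.25, within both numbers. Slc4a4 (-0.40 and -0.12), Acsbg1 (-0.09 and -0.13) and Notch1 (-0.19 and -0.004) were the other 3 lower in both numbers, Notch1 by next to nothing in duplicate 2.

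Several genes with a wide gap showed a small or mixed difference between the shRNA groups. Slc15a2, whose sign turned under median centring, differed by 0.00017 ± 0.70, Slc6a11 by 0.06 ± 0.57, Gfap, whose sign turned under cyclic loess, by 0.01 ± 0.29 and Gja1 by 0.03 ± 0.33, with opposite signs in the numbers 1 and 2 for all 4. The 95% interval of Slc15a2 ran from -1.77 to 1.77. For Apoe, Aqp4, Hopx, Vim, Ndrg2, Zfp36l1 and Mlc1 the within-number difference was larger in duplicate 2, between 0.26 (Mlc1) and 0.67 (Hopx), than in duplicate 1, between -0.16 (Mlc1) and 0.12 (Apoe). These 7 were picked after their values were seen. PHF6 shRNA duplicate 2 was the highest array in each. For Hopx the control duplicate 2 array was below background, and for Hopx, Aqp4 and Zfp36l1 both duplicate 1 arrays were, so those differences are not exact.

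**Figure D3:**
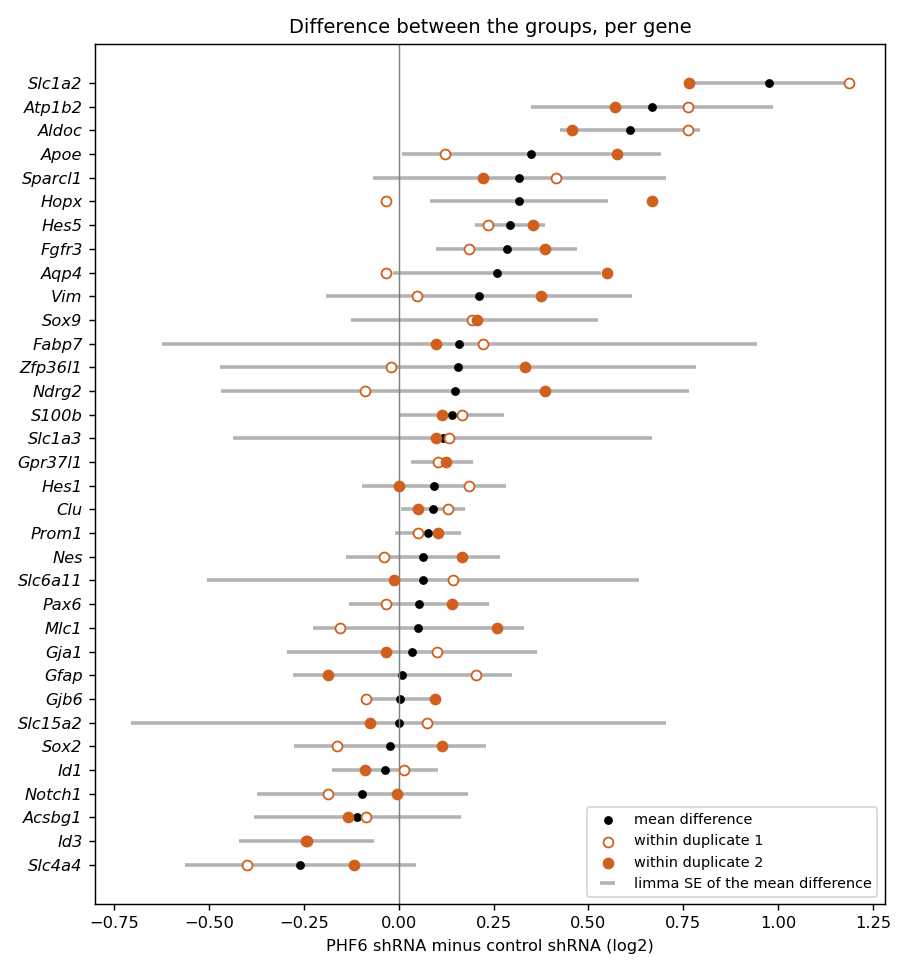
Log2 difference, PHF6 shRNA minus control (x axis), for each of the 34 genes, sorted by the mean difference (black) with limma's SE as a grey bar; orange circles are the difference within duplicate 1 (open) and within duplicate 2 (filled). Slc1a2, Atp1b2 and Aldoc have the 3 largest means and lie farthest right within duplicate 1, while Hopx, not exact because its control array was below background, and Apoe reach 0.67 and 0.57 within duplicate 2 alone.

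Genes outside the list were ranked by how near their pattern over the 4 arrays was to that of Slc1a2. The measure was the distance between log2 values centred on their own mean, and the 34 genes were left out of this ranking. Among genes above background on all 4 arrays the nearest were Purb, a single-stranded DNA-binding protein (distance 0.0841 log2 units), Lmo1, a LIM-domain transcription regulator (0.160), and Pcdh8, a protocadherin (0.192). Purb read 78.5 and 120.0 with control shRNA and 169.7 and 192 with PHF6 shRNA. Of the 34, Aldoc was nearest (0.371) and Atp1b2 next (0.472).

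Other genes of the 2 cell types, from wider lists, were set beside the 34. Of 44 other astrocyte genes 27 had a higher duplicate 2 array in both groups, against 32.3% of all genes, with a median gap of 0.13, and 15 of the 44 were above background on no array. Of 28 other radial glia genes 18 did, with a median gap of 0.27. With the shRNA group as a second factor 18 of the 44 and 8 of the 28 passed, all higher in duplicate 2, against 3.17% of all genes in that direction. Slc38a3, a glutamine transporter, read 48.02 and 131 with control shRNA and 79.6 and 169 with PHF6 shRNA, and Ptprz1, a receptor phosphatase of radial glia, 577 and 1028 (control shRNA) and 531 and 1109 (PHF6 shRNA).

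Between the shRNA groups none of these genes passed with the shRNA group as the only factor. With the number added, 5 of the 44 passed, 4 higher and 1 lower, against 909 of all 17245 genes. Of the 28, 4 passed in that fit, 3 higher and 1 lower. Of the other astrocyte genes 30 of 44 were higher with the PHF6 shRNA (median 0.07) and of the other radial glia genes 21 of 28 (median 0.12), against 47.7% of all genes. Of 17 genes of dividing cells 3 were higher (median -0.12). The smallest p-values among the astrocyte genes belonged to Nfib, a nuclear factor I gene, at 0.41 ± 0.09, the metabotropic glutamate receptor gene Grm3 at -0.54 ± 0.14, Ttyh1, a tweety-family membrane protein in both lists, at 0.37 ± 0.10, and Plpp3, a lipid phosphatase, at 1.08 ± 0.42 (limma adjusted p from 0.24 to 0.45). Plpp3 read 63.3 and 156 with control shRNA and 184 and 241 with PHF6 shRNA, so both PHF6 shRNA arrays lay above both control arrays. Among the radial glia genes Rcn1, a calcium-binding protein of the endoplasmic reticulum, differed by -0.38 ± 0.08, Ccnd2, cyclin D2, by 0.61 ± 0.16 and the metallothionein gene Mt1 by 0.56 ± 0.15.

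In the Notch pathway 12 of 26 genes were higher and 14 lower with the PHF6 shRNA, with a median of -0.01. Of all genes 47.7% were higher. None of the 26 passed with the shRNA group as the only factor. With the number added 2 of the 26 passed, both lower, against 605 of all 17245 genes in that direction. Rbpj, the DNA-binding partner of Notch, read 91.04 and 94.4 with control shRNA and 47.8 and 61.2 with PHF6 shRNA, a difference of -0.78 ± 0.13 (limma adjusted p = 0.23). Mib1, a ubiquitin ligase that activates Notch ligands, read 199 and 239 (control shRNA) and 132 and 145 (PHF6 shRNA), a difference of -0.66 ± 0.12 (limma adjusted p = 0.24). The gamma-secretase subunit genes Aph1a and Ncstn differed by -0.28 ± 0.09 and -0.18 ± 0.08. Arrays of the 2 groups did not overlap in 8 of the 26 toward lower values, against 21.7% of all genes. In the BMP pathway 14 of 21 genes were higher and 7 lower, with a median of 0.04, led by the receptor gene Acvr1 at 0.42 ± 0.12. None of the 21 passed with the shRNA group as the only factor. With the number added 1 of the 21 passed, higher, against 304 of all 17245 genes in that direction.

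Genes of dividing cells moved with the same duplicate number. Of 17, 16 read higher in duplicate 2 in both groups, against 32.3% of all genes, with a median gap of 0.63. Their summed intensity was 1042 and 926 in the duplicates 1 against 1593 and 1613 in the duplicates 2. Mki67, a marker of division, read 108 and 205 with control shRNA and 60.7 and 236 with PHF6 shRNA. The summed intensity of the 34 glial genes was 4275 and 4877 against 7742 and 9214. The 12 neuron markers did not follow the number, with a median gap of 0.06 and 6 of 12 higher in duplicate 2 in both groups. Among oligodendrocyte lineage markers 6 of 11 were higher in duplicate 2 in both groups, with a median gap of 0.09, and the transcription factor gene Olig1 read 49.9 and 133 with control shRNA and 38.8 and 114 with PHF6 shRNA. Of 13 microglia markers 1 was higher in duplicate 2 in both groups, and of 10 meningeal fibroblast markers 3 were, near the share of all genes. In 9 of the 13 microglia markers both duplicate 2 arrays lay below both duplicate 1 arrays, against 24.6% of all genes. Of these 13, 8 were above background on no array. The part of these cells in the gaps of the glial genes was not tested.

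Beside the shRNA difference of the glial genes, 11 of 12 neuron markers had a lower mean with the PHF6 shRNA. So did 2844 of the 4311 genes in the brightest 25% and 9023 of all 17245 genes. The median was -0.20 for the neuron markers against -0.08 for the brightest 25% of all genes. The summed intensity of the neuron markers was 15434 and 15626 with control shRNA and 13729.5 and 14021 with PHF6 shRNA. Nefl, the light neurofilament, differed by -0.65 ± 0.21 and Tubb3, the neuronal tubulin, by -0.22 ± 0.08, while Map2 differed by 0.05 ± 0.09. None of the 12 passed with the shRNA group as the only factor. With the number added 1 of the 12 passed, lower, against 605 of all 17245 genes in that direction. Of 5 measured markers of intermediate progenitors, the cells between radial glia and neurons, 5 had a higher mean with the PHF6 shRNA, against 47.7% of all genes, with a median of 0.17. They were higher in both numbers in 4, against 27.8% of all genes, and without overlap between the groups in 3, against 16.0%. Elavl4, an RNA-binding protein gene that neurons also express, differed by 0.43 ± 0.10 and Sstr2, a somatostatin receptor gene, by 0.53 ± 0.11. None of the 5 passed with the shRNA group as the only factor (smallest limma adjusted p = 0.24). With the number added 2 of the 5 passed, both higher, against 304 of all 17245 genes in that direction. Neurog1 was above background on no array. The part of neurons and intermediate progenitors in the values of Slc1a2, Aldoc and Atp1b2 was not tested.

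**Figure D4:**
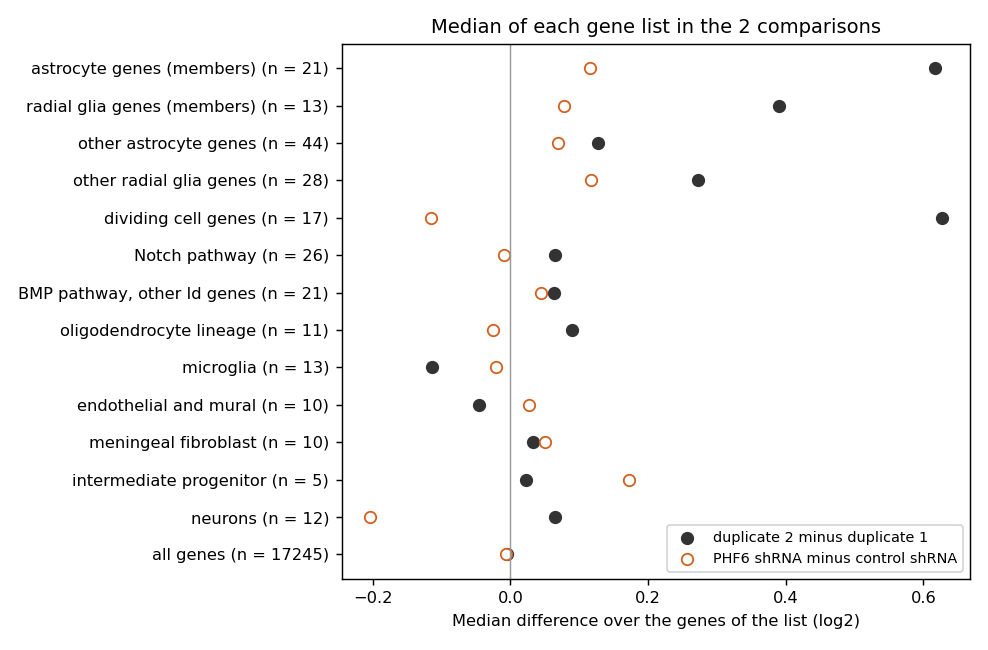
Median difference in log2 units over the measured genes of each list (x axis), for duplicate 2 minus duplicate 1 (filled) and for PHF6 shRNA minus control shRNA (open). The astrocyte genes (0.62), radial glia genes (0.39) and dividing cell genes (0.63) lie to the right for the duplicate number, while the shRNA medians of the lists drawn lie between -0.20 and 0.17.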

How the data were processed

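RNA was labelled and hybridised to Affymetrix arrays that cover whole transcripts, with 1 colour, per the labels' protocols. The deposited values are probe set intensities on a linear scale; the authors made them with RMA, per the submitters' processing notes, and no scanner files were used here. RMA shrinks the differences of dim probe sets. Log2 was taken before every test. The platform annotation names 1 gene for 18644 of 29214 probe sets, several for 962 and none for 9608. Symbols were updated through gene identifiers (18460 rows), and the brightest probe set was kept for the 879 genes with several.

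Groups came from the sample titles. limma 3.58.1 in R 4.3.3 (lmFit, eBayes, 2-sided, no filter, no covariate) was fitted over all 17245 genes with Benjamini-Hochberg adjustment at 0.05, once for the shRNA group and once for the duplicate number, and was tested on simulated data. Lists are described by counts and medians with no set test. All members are named; up to 4 genes of other lists by smallest p, defining markers, and further genes chosen after their values were seen. Members, lists and motifs were chosen with earlier results of these data known. Promoter windows came from RefSeq (GRCr8), for 32 of 34 members. Alternatives were the replicate block, each array left out, other scalings, filters on dim genes, a variance trend, array weights and the mean of probe sets. The number of arrays limits the precision.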

Additional observations from a re-analysis of the deposited data

How the results depend on the processing

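Between the shRNA groups no glial gene and no other gene passed under a further quantile normalization, median centring, cyclic loess, the 2 filters on dim genes, the mean of probe sets, a variance trend or array weights, and 24 to 28 of the glial genes measured stayed higher with the PHF6 shRNA. With the duplicate number as a replicate block 909 genes passed, among them 3 of the 34 (5.27% of all genes), Slc1a2, Atp1b2 and Aldoc, all higher (limma adjusted p = 0.0071, 0.0083 and 0.015). Whether a number pairs 2 arrays is not in the labels. Same-numbered arrays deviated together from their group means (r = 0.57 over all genes), a hint from the data and not from the design. Leaving out 1 array gave 0 to 90 passing genes (90 without PHF6 shRNA duplicate 2) and 0 of the 34, 9 to 33 glial genes higher and medians from -0.18 to 0.41; the sign held in all 4 such fits for 9 genes, Slc1a2, Atp1b2, Aldoc, Clu, Gpr37l1, Fgfr3, Prom1, Hes5 and Id3. Among the scalings, the sign turned for Gfap, Gjb6 and Sox2 under cyclic loess, for Gjb6 and Sox2 under quantile normalization and for Slc15a2 under median centring. For the duplicate number, the second factor raised the passing genes from 0 to 684 and the glial genes among them from 0 to 21. Only genes above background on at least 2 arrays gave 2 passing genes, Slc15a2 and Fabp7, both above background on all 4 arrays; the median gap of 0.61 over the 30 glial genes kept is partly set by that filter, since 8 of them met it through the duplicate 2 arrays. Leaving out 1 array gave median gaps from 0.46 to 0.61 and 28 to 33 genes higher, and turned the sign for Slc1a2, Aldoc, Clu, Gpr37l1 and Hes5 at least once. Fits with 1 array in a group assume that it varies like the other group.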

Other observations

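Lcn2 and Ccl2, which encode secreted proteins known from reactive glia, had the widest gaps toward the duplicates numbered 2 among all genes. Lcn2, lipocalin 2, read 37.01 and 221 in the control duplicates 1 and 2 and 80.5 and 549 in the PHF6 shRNA duplicates. Its gap was 2.67 ± 0.57 log2 units (SE, with limma adjusted p = 0.30, or 2.9e-05 with the shRNA group as a second factor). Control duplicate 1 was below background, so this gap is not exact. Lcn2 was also higher with the PHF6 shRNA, by 1.12 within duplicate 1, likewise not exact, and 1.31 within duplicate 2. The mean of these was 1.22 ± 1.15 with the shRNA group as the only factor (limma adjusted p = 0.87), a fit that leaves the gap in the error. With the number added the SE was 0.08 (limma adjusted p = 0.0030). Ccl2, a chemokine, read 99.2 and 317 with control shRNA and 121 and 557 with PHF6 shRNA, a gap of 1.94 ± 0.29. Both ranked above Fabp7 among all 17245 genes. Timp1, an inhibitor of matrix metalloproteases, read 54.3 and 104 (control shRNA) and 63.2 and 178 (PHF6 shRNA). The list of reactive astrocyte genes held both high and low gaps. In it 18 of 36 were higher in duplicate 2 in both groups, against 32.3% of all genes, with a median of 0.03. Of the 36, 16 were above background on no array. Egfr, a growth factor receptor of glial progenitors, read 66.4 and 163 with control shRNA and 52.1 and 152 with PHF6 shRNA. Lcn2, Ccl2, Timp1 and Egfr were named after their values were seen.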
